A study of Rattus norvegicus with 10 samples.

Results

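The genes described here are the nuclear genes of oxidative phosphorylation, read in a rat cell line exposed to nicotinic receptor ligands. They were chosen by name: every row whose gene name begins with Nduf, Uqcr, Atp5 or Cox followed by a digit, together with Sdha, Sdhb, Sdhc and Sdhd, and that has reads in all 10 libraries. The rule found 96 rows, called members below, of 13391 genes with reads in all 10 libraries, and 14119 genes were listed in any table. Ndufv3, Uqcrb and Cox6b1 each stand on 2 rows, so the members carry 93 names, and the rows of one name are told apart below as the higher and the lower row. By complex there were 43 members of complex I, 4 of complex II, 9 of complex III, 22 of complex IV and 18 of complex V. By role 75 were subunits and 17 were assembly factors, and Cox7a2l, Cox7a2l2, Atp5s and Atp5if1 were neither. A mean level of at least 50 over the libraries, the threshold used for counts below, was reached by 94 members. The exceptions were the lower Ndufv3 row, with a mean level of 11.4 and a range over the libraries of 2.72-fold, and Atp5pb, with 30.9 and 2.67-fold. Statements on the largest or smallest range below leave these rows out.

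All libraries came from RPE-J cells, a line from rat retinal pigment epithelium transformed with the SV40 virus, and held polyadenylated RNA. PNU-282987, called PNU here, activates nicotinic acetylcholine receptors of the α7 type and was given at 100 nM for 30 min, 1 h, 3 h, 8 h or 12 h. Nicotine (1 µM) served as the positive control for receptor activation and MLA (100 nM), an antagonist, as the negative control, each for 1 h or for 12 h, and the vehicle DMSO was given for 12 h. With 1 library per condition, each comparison of conditions sets 1 library against 1. Such a difference has no replicate check, and intervals given with it cover counting error only.

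Oxidative phosphorylation takes place in the inner mitochondrial membrane. Complex I (NADH dehydrogenase) and complex II (succinate dehydrogenase) pass electrons to coenzyme Q, complex III passes them on to cytochrome c, and complex IV (cytochrome c oxidase) passes them to oxygen. Complexes I, III and IV pump protons, and complex V, the ATP synthase, uses the proton gradient to make ATP. Complexes I, III, IV and V join subunits encoded in the nucleus with others encoded in mitochondrial DNA, whereas complex II is encoded in the nucleus alone. The retinal pigment epithelium is known to rely on oxidative phosphorylation while it supplies the photoreceptors. The factors NRF1, GABP of the ETS family, YY1 and the estrogen-related receptors are known to act at promoters of these genes.

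Promoter windows, which run from 250 bases before a gene's start to 50 after it, were found in RefSeq (rat build GRCr8) for 83 of the 93 names. Windows of 4 members are printed because their levels behaved differently across the libraries: Atp5i had the largest range in complex V among members with a mean level of 50 or more and its highest level in PNU 12 h, Cox4i1 was high and Uqcrc2 low in nicotine 1 h and PNU 3 h, and Uqcrfs1 had the smallest range of all members with a mean level of 50 or more. Capitals mark matches, on either strand, to the searched letters GCGCA, any base and GCGC (NRF1), CCGGAAG (ETS), AAGATGGC (YY1), TCAAGGTCA (ERR), TGACGTCA (CRE) and GGGGCGGGG (SP1). The windows lie on the plus strand at chr14:1464610-1464909 (Atp5i, named Atp5me in RefSeq), chr19:65630133-65630432 (Cox4i1), chr1:184598990-184599289 (Uqcrc2) and chr17:34186352-34186651 (Uqcrfs1), and each is written 5′ to 3′.
Atp5i: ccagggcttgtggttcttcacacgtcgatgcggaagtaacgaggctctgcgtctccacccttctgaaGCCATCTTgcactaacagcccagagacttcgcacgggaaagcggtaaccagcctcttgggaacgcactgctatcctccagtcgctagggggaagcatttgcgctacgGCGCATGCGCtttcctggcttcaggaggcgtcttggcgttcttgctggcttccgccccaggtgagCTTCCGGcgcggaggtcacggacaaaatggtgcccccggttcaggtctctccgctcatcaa
Cox4i1: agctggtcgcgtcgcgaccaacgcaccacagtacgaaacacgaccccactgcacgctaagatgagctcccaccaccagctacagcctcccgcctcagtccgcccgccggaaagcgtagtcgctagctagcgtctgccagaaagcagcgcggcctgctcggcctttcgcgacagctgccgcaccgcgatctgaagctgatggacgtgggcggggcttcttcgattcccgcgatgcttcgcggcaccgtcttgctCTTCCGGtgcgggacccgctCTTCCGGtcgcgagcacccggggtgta
Uqcrc2: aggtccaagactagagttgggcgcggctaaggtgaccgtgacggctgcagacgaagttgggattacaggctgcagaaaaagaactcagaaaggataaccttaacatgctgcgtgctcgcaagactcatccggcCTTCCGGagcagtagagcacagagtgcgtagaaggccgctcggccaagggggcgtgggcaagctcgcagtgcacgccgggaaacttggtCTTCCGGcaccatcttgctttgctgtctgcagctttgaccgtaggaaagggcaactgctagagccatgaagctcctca
Uqcrfs1: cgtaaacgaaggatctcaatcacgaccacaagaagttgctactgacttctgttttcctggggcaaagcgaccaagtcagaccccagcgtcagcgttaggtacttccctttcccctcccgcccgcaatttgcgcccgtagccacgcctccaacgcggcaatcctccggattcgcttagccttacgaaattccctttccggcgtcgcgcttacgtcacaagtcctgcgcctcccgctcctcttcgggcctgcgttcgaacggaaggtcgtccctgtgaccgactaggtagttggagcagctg

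In these 4 windows the marked letters are the NRF1, ETS and YY1 motifs in Atp5i and a pair of ETS motifs in each of Cox4i1 and Uqcrc2, while the Uqcrfs1 window holds none of the searched letters. Over all 83 windows the NRF1 letters were found in 20.5%, against 9.61% of 10902 windows of genes with reads in all libraries. The ETS letters were found in 30.1% of member windows and 17.2% of those windows, and the YY1 letters in 19.3% and 5.35%. The ERR letters stood in 2.41% against 0.321% and the CRE letters in 3.61% against 3.05%. These member shares rest on only 2 windows for ERR and 3 for CRE. The SP1 letters stood in 7.23% of member windows and 20.5% of the windows of genes with reads in all libraries, which include the members. Median GC content was 57.3% in member windows and 61.0% in windows of genes with reads in all libraries. A match is a description of letters in a window, not a binding site.

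The libraries held between 15220638 reads in listed genes (PNU 8 h) and 31510333 (MLA 12 h), and PNU 12 h held 29545212. Members took between 1.42% of these reads in PNU 8 h and 1.68% in PNU 12 h. The nicotine 1 h library stood apart: 157 genes with a mean level of 50 or more differed at least 2-fold between it and DMSO 12 h, and 297 between it and nicotine 12 h, but 17 between it and PNU 3 h and 16 between it and PNU 12 h. Rpe65, a defining marker of the pigment epithelium, had no row, and 6 of 13 listed pigment epithelium markers had reads in all libraries, with summed levels from 5730.3 to 8131. Best1 made up most of that sum, with levels from 4767 to 7076. Of 6 epithelium markers 3 had reads in all libraries, Krt8, Tjp1 and Ocln, with summed levels from 8869 to 9903. Of 6 fibroblast markers 2 had reads in all libraries, Col1a1 and Col3a1, with summed levels from 32317 to 59371. In a bulk library, fewer cells of a type and less RNA per cell cannot be told apart.

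Across the 10 libraries the members varied little. PNU 12 h held the highest level of more members than any other library, and PNU 8 h the lowest. Levels are reads divided by a size factor that puts all libraries on 1 scale. The median member had a highest level 1.34-fold above its lowest, against 1.38-fold for all genes with a mean level of 50 or more. A range of at least 1.5-fold was found for 11.7% of members and 31.9% of all such genes, and the largest range of a member at that level was 1.78-fold. Of the 94 members, 53 had their highest level in PNU 12 h (56.4%, against 11.1% of all genes), 17 in nicotine 1 h (18.1%, against 17.1%) and 9 in DMSO 12 h (9.57%, against 7.04%). The lowest level fell in PNU 8 h for 49 members (52.1%, against 12.2% of all genes) and in PNU 3 h for 20 (21.3%, against 12.6%). Scaled by total reads in listed genes instead, 49 members were highest in PNU 12 h and 30 lowest in PNU 8 h. Without the nicotine 1 h and PNU 3 h libraries, 66 members were highest in PNU 12 h (all genes 22.3%) and 66 were lowest in PNU 8 h (all genes 19.5%). This omission was chosen after seeing the data, and leaving out libraries can only keep or raise such counts.

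**Figure D1:**
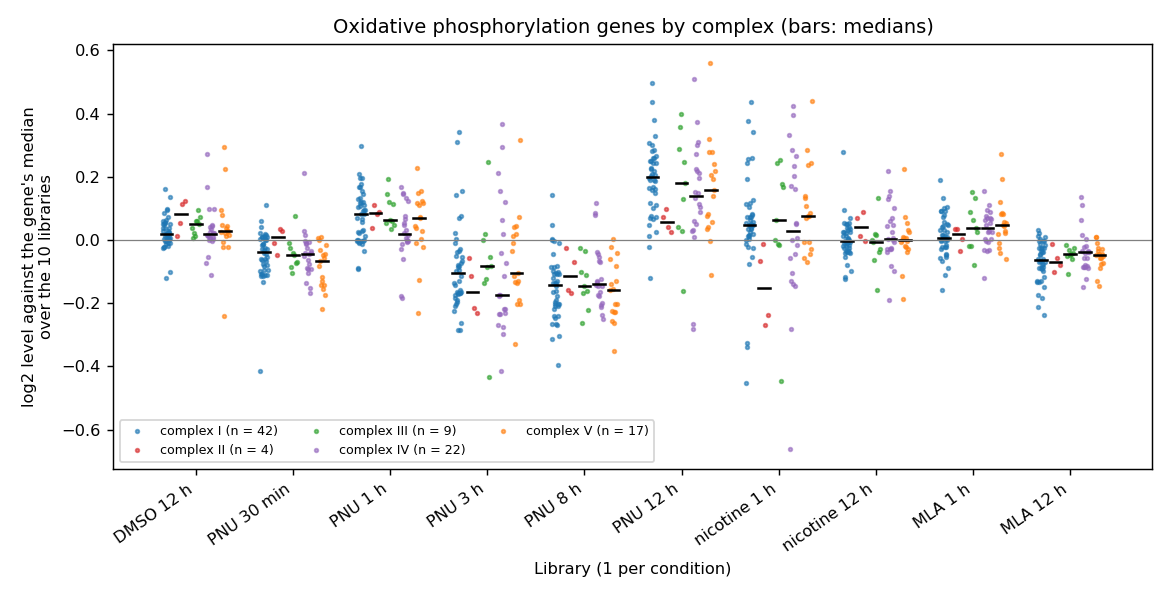
Each point is 1 member with a mean level of 50 or more, plotted as its log2 level against its own median over the 10 libraries (y axis), by library (x axis) and complex (colour), and black bars are the medians of a complex. The points lie highest in PNU 12 h and lowest in PNU 3 h and PNU 8 h, and the complex II bar in nicotine 1 h lies below those of the other complexes.

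Relative to each gene's own median over the libraries, the median log2 level of the members was, over PNU 30 min, 1 h, 3 h, 8 h and 12 h in turn, -0.04, 0.07, -0.11, -0.15 and 0.18. It was 0.05 with nicotine for 1 h and 0.00 with it for 12 h, 0.03 and -0.05 with MLA for these times, and 0.02 with DMSO. Over all 13391 genes the same median stayed between -0.002 in PNU 1 h and 0.002 in PNU 12 h. The 92 genes with names beginning Rpl or Rps and a digit, called cytosolic ribosomal protein genes here, moved with the members. Their median was -0.11, -0.16 and 0.20 at 3 h, 8 h and 12 h of PNU. This name rule can also take in genes that do not encode ribosomal proteins, and its rows were not sorted further. The 13 genes encoded by the mitochondrial genome had the same signs at these times, with medians of -0.09, -0.06 and 0.04. Their order differed, since PNU 3 h lay below PNU 8 h, and their highest median was 0.17, in nicotine 12 h. PNU 8 h held the fewest reads, and PNU 12 h the most after MLA 12 h, where the members' median was -0.05. Neither the part of depth nor that of the difference shared with the ribosomal protein genes was tested.

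**Figure D2:**
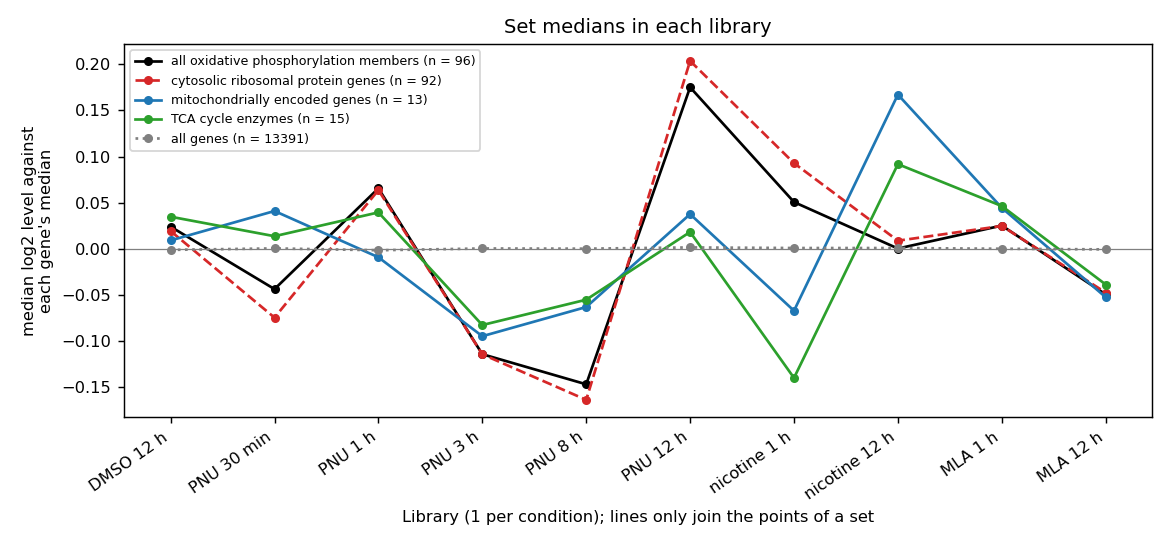
Median log2 level against each gene's own median (y axis) for the members, the cytosolic ribosomal protein genes, the mitochondrially encoded genes, the tricarboxylic acid (TCA) cycle enzymes and all genes, by library (x axis). The members and the ribosomal protein genes both peak in PNU 12 h, at 0.18 and 0.20, while the mitochondrially encoded genes are highest in nicotine 12 h, at 0.17.

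The widest gap between consecutive times of PNU lay between 8 h and 12 h. The median member was 1.25-fold higher in PNU 12 h than in PNU 8 h (log2 0.32), and 89 of 96 members were higher, while the median of all genes was -0.005. At least 1.2-fold higher were 58 of 94 members, against 13.2% of all genes at that mean level, and 2 were at least 1.2-fold lower, against 15.7%. Subunits made up 51 of the 58, of 73 subunit rows. Of 17 assembly factors 5 were at least 1.2-fold higher and 2 at least 1.2-fold lower, and their median log2 difference was 0.17 against 0.36 for the subunits. Among the ribosomal protein genes 64 of 85 were at least 1.2-fold higher, and among the mitochondrially encoded genes 2 of 13 were higher and 2 lower. Against PNU 3 h in place of PNU 8 h, 47 members were at least 1.2-fold higher in PNU 12 h (all genes 13.8%), and against the median of the other 9 libraries 26 were (all genes 5.49%).

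By complex, at least 1.2-fold higher levels in PNU 12 h than in PNU 8 h were found for 29 of 42 members of complex I, 0 of 4 of complex II, 5 of 9 of complex III, 14 of 22 of complex IV and 10 of 17 of complex V. Within complex I these were 22 of 27 supernumerary subunits, which surround the catalytic core, 4 of 7 core subunits and 3 of 8 assembly factors. All 11 nuclear subunit rows of complex IV were among them, but 2 of its 9 assembly factors. Complex V had 3 of 3 peripheral stalk subunits, which hold the catalytic head in place, and 1 of 5 subunits of that head, the F1 part. Among all genes at that mean level the share was 13.2%. With so few rows, complex II and the F1 part cannot be told apart from that share. The difference between the shares of the complexes and roles was not tested.

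**Figure D3:**
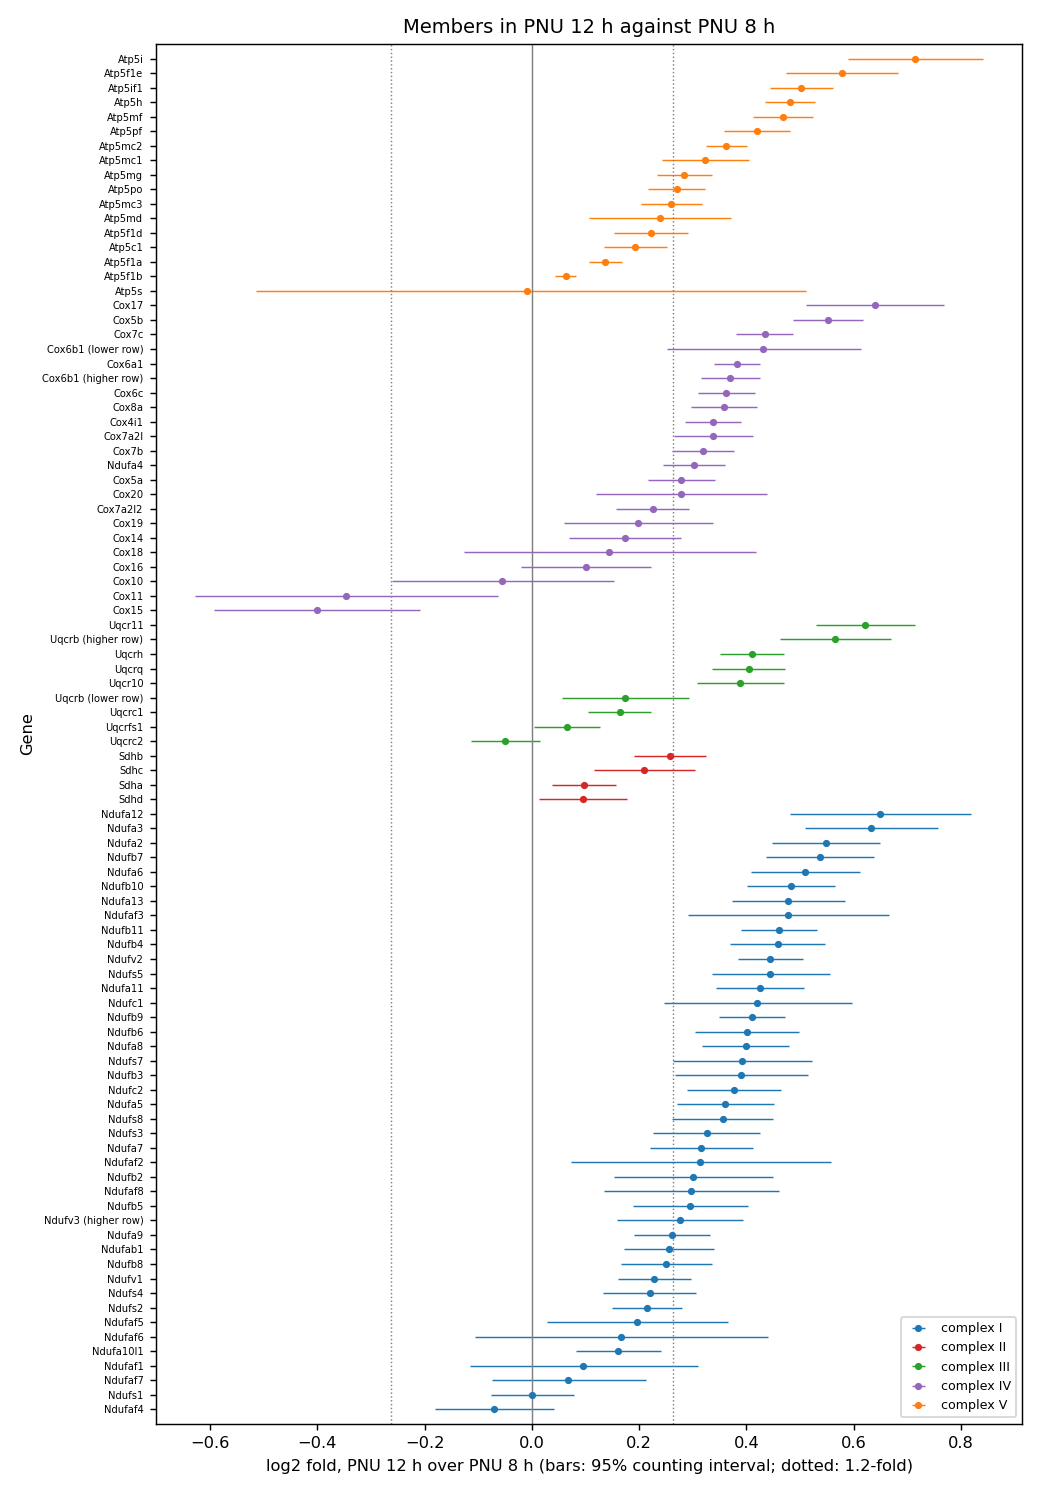
The log2 fold of each member with a mean level of 50 or more in PNU 12 h over PNU 8 h (x axis; bars are 95% counting intervals, dotted lines mark 1.2-fold), grouped by complex and ordered by fold (y axis). Of the 94 points 58 lie to the right of the upper dotted line, and Cox15 and Cox11, assembly factors of complex IV, lie to the left of the lower one.

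Among the 42 complex I members with a mean level of 50 or more Ndufa3, a small supernumerary subunit of the membrane arm, had the largest range, 1.72-fold. Over 30 min, 1 h, 3 h, 8 h and 12 h of PNU its levels were 1204, 1466, 979, 1087 and 1685. They were 1132 and 1237 after 1 h and 12 h of nicotine, 1281 and 1166 after the same times of MLA, and 1185 with DMSO. PNU 12 h was the highest and PNU 1 h the next, while the remaining libraries lay close together apart from the low PNU 3 h and PNU 8 h. Ndufa12, a supernumerary subunit of the peripheral arm, had a range of 1.57-fold, with 602, 594 and 931 at 3 h, 8 h and 12 h of PNU, and its other 7 levels lay between 626 and 754. The log2 difference between PNU 12 h and PNU 8 h was 0.63 (95% interval 0.51 to 0.76) for Ndufa3 and 0.65 (0.48 to 0.82) for Ndufa12. The smallest range of a complex I subunit, 1.15-fold, was that of Ndufa10l1, an entry named as like the supernumerary subunit Ndufa10, whose 10 levels lay between 2869 and 3303.

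Ndufv1 and Ndufs1, core subunits that hold the NADH-binding site and iron-sulfur clusters, differed from each other. Along the PNU times, from 30 min to 12 h, Ndufv1 stood at 3946, 3900.1, 4855, 3907 and 4578, and Ndufs1 at 3502, 3462, 2956, 3129 and 3130.4. After 1 h and 12 h of nicotine Ndufv1 stood at 5086 and 3592, and Ndufs1 at 2694 and 3532. With MLA for these times the levels were 3511 and 3925 for Ndufv1 and 3502 and 3348 for Ndufs1, and with DMSO they were 3905 and 3612. Nicotine 1 h held the highest Ndufv1 level and the lowest Ndufs1 level. Between PNU 12 h and PNU 8 h Ndufv1 had a log2 difference of 0.23 (95% interval 0.16 to 0.30), and the interval of Ndufs1, -0.08 to 0.08, included 0. Ndufaf1, an assembly factor of the membrane arm, had a range of 1.56-fold, from 326 in nicotine 1 h to 508.5 in MLA 1 h.

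The 4 complex II members lay closer to their medians in PNU 12 h than the members of complex I and below them in nicotine 1 h, a difference that was not tested. Relative to each gene's median, their median log2 level was 0.06 in PNU 12 h, where complex I had 0.20, and -0.15 in nicotine 1 h, where complex I had 0.05. Sdha, the flavoprotein that oxidises succinate, kept a range of 1.10-fold, with levels from 5090.2 in nicotine 1 h to 5598 in PNU 12 h. Sdhb, the iron-sulfur subunit, ranged from 3941 in PNU 8 h to 4753 in PNU 1 h. Sdhc and Sdhd, the membrane anchors, were lowest in nicotine 1 h, at 1901 and 2490.1, and next lowest in PNU 3 h, at 1972 and 2500.1. Their highest levels, 2475 and 3193, were those in DMSO 12 h.

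In complex III Uqcrfs1, the Rieske iron-sulfur protein, had the smallest range of any member with a mean level of 50 or more, 1.06-fold. Its levels ran only from 4771 in PNU 8 h to 5037 in PNU 1 h. Uqcr11, a small supernumerary subunit, had the largest range of the complex, 1.54-fold, from 1943 in PNU 8 h to 2989 in PNU 12 h, and nicotine 1 h was next with 2759. Uqcrc1 and Uqcrc2, the paired core proteins of the matrix side, went opposite ways. Uqcrc1 was at 6314 in PNU 3 h and 6344 in nicotine 1 h, above the other 8 libraries, which lay between 4776 and 5825. Uqcrc2 was at 3665 in PNU 3 h and 3631 in nicotine 1 h, below the other 8 libraries, which lay between 4427 and 5431.

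Among the nuclear subunits of complex IV Cox4i1, the regulatory subunit on the matrix side, stood at 6616, 6984, 8250.4, 6431 and 8129 along the PNU times from 30 min to 12 h. Its levels were 9026 and 6599 after 1 h and 12 h of nicotine, 6578 and 6551 after MLA for as long, and 6852.5 with DMSO. Nicotine 1 h, PNU 3 h and PNU 12 h were high, and the remaining 7 libraries lay below all of them. Cox5a, which also faces the matrix, had the same 3 high libraries, with 6161, 6043 and 5466, and its other levels lay between 4415 and 4904. Cox6a1, the widely expressed form of subunit VIa, ranged from 9317 in PNU 8 h to 12285 in nicotine 1 h. Ndufa4, first named for complex I and now counted with complex IV, ranged from 5183 in PNU 3 h to 6531 in PNU 12 h, and Cox7b had the smallest range of the nuclear subunits, 1.26-fold. Cox4i2, Cox6a2, Cox7a1, Cox7a2 and Ndufa4l2, the partners of the isoform pairs, were not analysed here.

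Of the 94 members, an assembly factor of complex IV, Cox11, had the largest range, and Cox11 and Cox15 were the only ones at least 1.2-fold lower in PNU 12 h than in PNU 8 h. Cox11, which delivers copper to the catalytic subunit, stood at 259.9, 226, 212, 269.5 and 212 along the same PNU times. Nicotine gave 161 after 1 h and 250.1 after 12 h, MLA 284 and 267, and DMSO 286. The 161 of nicotine 1 h was the lowest level, below all others, and the range was 1.78-fold. Cox17, which hands copper on to other factors of the complex, was instead highest in PNU 12 h, at 1573, with 979 in PNU 3 h at the other end and a range of 1.61-fold. Cox15, which works in the synthesis of heme A, stood at 442 in both PNU 12 h and nicotine 1 h, 583 in PNU 8 h and 625 in nicotine 12 h. From PNU 8 h to PNU 12 h the log2 difference was -0.35 (95% interval -0.63 to -0.06) for Cox11, -0.40 (-0.59 to -0.21) for Cox15 and 0.64 (0.51 to 0.77) for Cox17.

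In complex V Atp5i, subunit e, which takes part in the dimers of the enzyme, stood at 1001, 1259, 1180.3, 1046 and 1717 along the PNU times from 30 min to 12 h. It stood at 1419 and 1151 after 1 h and 12 h of nicotine, at 1331 and 1054 after MLA, and at 986 with DMSO. PNU 12 h was the highest and DMSO 12 h the lowest, and the range was 1.74-fold. Atp5f1a and Atp5f1b, the alpha and beta subunits that form the catalytic head, varied less. Atp5f1a had a range of 1.10-fold, from 18845 in PNU 8 h to 20718 in PNU 12 h, and Atp5f1b ran from 42041 in nicotine 12 h to 50087 in nicotine 1 h. The 3 genes that encode the same mature subunit c of the proton-driven rotor did not share 1 order. Atp5mc2 was highest in PNU 12 h, at 15675, while Atp5mc3 was highest in nicotine 1 h, at 7756, with PNU 3 h next at 7126. Atp5mc1 stood at 3346 in PNU 12 h and 3354 in nicotine 1 h. Atp5md, another small membrane subunit, had a range of 1.5-fold with its highest level, 1544, in nicotine 1 h, and Atp5s, a coupling factor at low level, a range of 1.54-fold between 61.6 and 95.02.

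**Figure D4:**
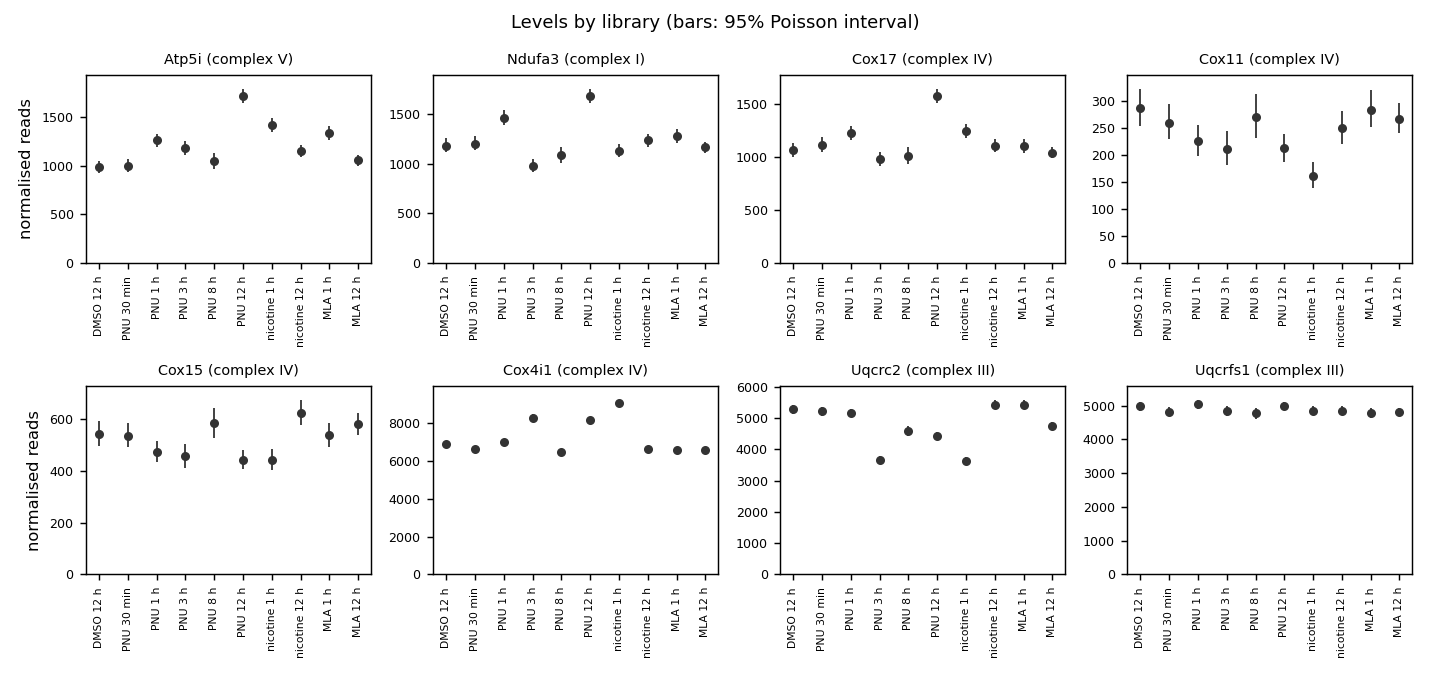
Levels (reads divided by size factor, y axis from 0) of 8 members in the 10 libraries (x axis), with 95% Poisson intervals of the reads as bars. Atp5i, Ndufa3 and Cox17 are highest in PNU 12 h, Cox11 is lowest in nicotine 1 h, Cox4i1 and Uqcrc2 depart in opposite directions in PNU 3 h and nicotine 1 h, and Uqcrfs1 is level, between 4771 and 5037.

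Nicotine 1 h and PNU 3 h, which differ in compound and time, shared departures of members from their medians. A level more than 0.2 on the log2 scale above the gene's median in both libraries was found for 7 members, Ndufv1, Ndufb10, Uqcrc1, Cox10, Cox4i1, Cox5a and Atp5mc3. Another 7 were more than 0.2 below it in both, Ndufaf1, Ndufs1, Sdhc, Sdhd, Uqcrc2, Cox11 and Cox15. Each group is 7.45% of the 94 members, against 11.1% of all genes above and 12.0% of all genes below, so neither share exceeds that of genes at large. The promoter windows of the upper group had a median GC content of 60.7% (56% to 69%) and those of the lower group 58.3% (48% to 65%). These groups were formed from the values, so their levels are a description.

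**Figure D5:**
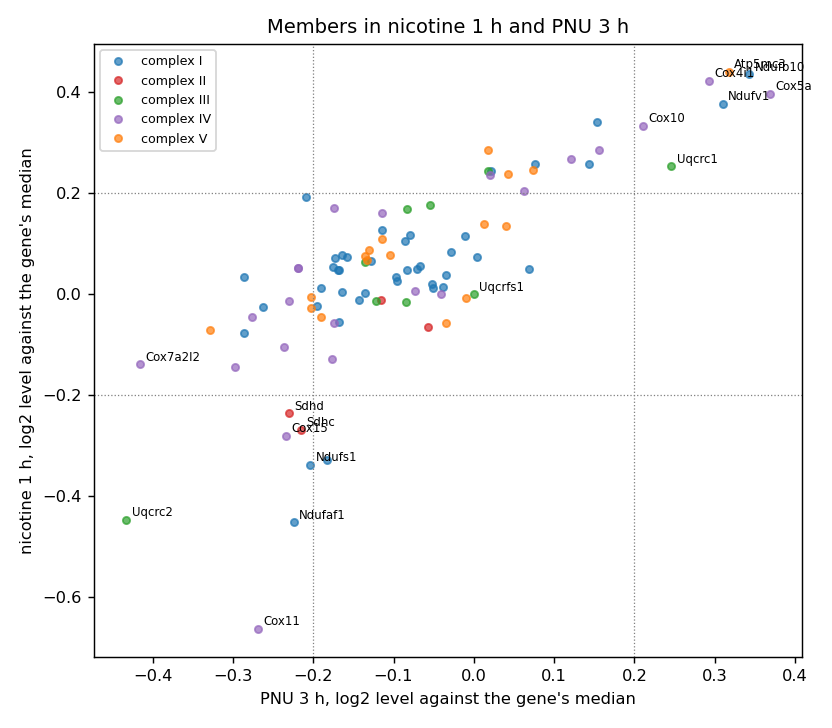
Log2 level against the gene's median in PNU 3 h (x axis) and nicotine 1 h (y axis) for the 94 members, coloured by complex, with dotted lines at 0.2 and -0.2. The 7 members of the upper right corner include Cox4i1 and Ndufv1, and the 7 of the lower left corner include Cox11 and Uqcrc2.

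Against the vehicle at 12 h the members were on balance higher with PNU and lower with MLA. In PNU 12 h the median log2 difference from DMSO 12 h was 0.14, with 77 of 96 members higher, and 18 of 94 were at least 1.2-fold higher (all genes 8.64%) and 4 at least 1.2-fold lower (all genes 10.5%). The farthest above 0 were Atp5i at 0.80 (95% interval 0.69 to 0.91), Cox17 at 0.56, Ndufa12 at 0.56 and Ndufa3 at 0.51, and the farthest below were Cox11 at -0.43 (-0.68 to -0.18), Atp5md at -0.34, Atp5s at -0.30 and Cox15 at -0.30. Complex II had a median of -0.01, and the ribosomal protein genes had 0.17. In MLA 12 h the members' median was -0.09, with 83 of 96 lower. At least 1.2-fold higher there were 0 of 94 (all genes 9.71%) and at least 1.2-fold lower 4 (all genes 6.67%). Neither share with MLA exceeded that of all genes. In nicotine 12 h the members' median was -0.03, with 62 of 96 lower. At least 1.2-fold higher there were 0 (all genes 10.5%) and at least 1.2-fold lower 2 (all genes 9.41%). Against the same library, PNU 8 h had a median of -0.19, with 17 members at least 1.2-fold lower (all genes 11.4%) and 0 higher (all genes 14.2%), and PNU 30 min had -0.07, with 3 lower (all genes 4.15%) and 0 higher (all genes 6.19%). These comparisons share the DMSO 12 h library. Of all genes, 49.6% lay above their own median over the libraries in DMSO 12 h and 50.5% in PNU 12 h. In nicotine 12 h and MLA 12 h these shares were 50.3% and 49.7%. PNU 30 min, a library in which 8 genes differed at least 2-fold from DMSO 12 h, was also used as the reference. The members' medians were then 0.22 for PNU 12 h, 0.05 for nicotine 12 h and -0.004 for MLA 12 h.

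Compounds could be set side by side at 1 h and at 12 h. At 12 h, 33 of 94 members were at least 1.2-fold higher with PNU than with MLA (all genes 7.2%) and 2 were lower (all genes 11.4%), and the median log2 difference was 0.23. PNU against nicotine at 12 h gave 30 members higher (all genes 13.9%) and 3 lower (all genes 16.8%), with a median of 0.18. Nicotine against MLA at 12 h gave 2 higher (all genes 5.6%) and 0 lower (all genes 8.83%), with a median of 0.06. At 1 h the median log2 difference was 0.05 between PNU and MLA, where 0 members were at least 1.2-fold higher (all genes 6.19%) and 2 lower (all genes 7.73%). The members' median was 0.02 between nicotine and MLA at 1 h, where 13 were higher (all genes 22.4%) and 7 lower (all genes 24.5%). PNU against nicotine at 1 h gave 9 higher (all genes 21.7%) and 12 lower (all genes 17.7%), with a median of 0.03. Between nicotine and MLA at 1 h Ndufb10 at 0.55 and Ndufv1 at 0.53 stood at one end, and Cox11 at -0.82 (95% interval -1.10 to -0.54) and Ndufaf1 at -0.64 at the other.

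Along the PNU times the members' median was higher at 1 h than at 30 min, lower at 3 h and again at 8 h, and higher at 12 h. From 30 min to 1 h the median log2 difference was 0.12, with 83 of 96 members higher and 8 of 94 at least 1.2-fold higher (all genes 3.31%), while 0 were at least 1.2-fold lower (all genes 4.11%). From 1 h to 3 h it was -0.17, with 79 members lower and 28 at least 1.2-fold lower (all genes 16.8%), and 4 at least 1.2-fold higher (all genes 18.3%). The largest of these differences were those of Ndufa3 at -0.58 and Uqcrc2 at -0.49, and at the other end Atp5mc3 at 0.34 and Ndufv1 at 0.32. From 3 h to 8 h the median was -0.05, with 13 members at least 1.2-fold lower (all genes 15.4%) and 4 higher (all genes 16.1%), and the members that had been high at 3 h, Ndufb10 at -0.45 and Cox5a at -0.42, came lowest. Between 1 h and 12 h of the same compound the median log2 difference was 0.10 for PNU, -0.05 for nicotine and -0.09 for MLA. At least 1.2-fold higher at 12 h than at 1 h were 8 members with PNU (all genes 7.13%), 9 with nicotine (all genes 26.1%) and 0 with MLA (all genes 8.17%). At least 1.2-fold lower were 0 with PNU (all genes 9.76%), 16 with nicotine (all genes 24.5%) and 3 with MLA (all genes 6.61%).

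One model was fitted, limma over the 6 libraries at 1 h or 12 h of PNU, nicotine or MLA, with compound and time as terms. It treats the compounds as repeats of a time effect and the times as repeats of a compound effect. Of 13326 genes tested, 0 passed a Benjamini-Hochberg adjusted p of 0.05 for 12 h against 1 h and 0 for the agonists, PNU and nicotine, against MLA (0% in each direction), and an unadjusted p under 0.05 was found for 102 and 69 genes. No member passed either test: 0 of 96 had an unadjusted p under 0.05. The lowest unadjusted limma p of a member was 0.0963, for Cox11 in agonists against MLA, with a log2 difference of -0.39 (SE 0.20). The members' median log2 difference was -0.02 for time, with 36 higher and 60 lower, and 0.09 for agonists, with 85 higher and 11 lower, while the median of all genes in the latter was 0.002. Leaving out nicotine 1 h or nicotine 12 h raised the number of called genes in both contrasts. Every fit that leaves out 1 library keeps 1 library of that compound and 1 residual degree of freedom, so only effect sizes are given. Without either nicotine library the members' median for time was 0.005. For agonists it was 0.07 without nicotine 1 h and 0.12 without nicotine 12 h. Over the fits that leave out 1 library the members' median ran from -0.07 to 0.03 for time and from 0.03 to 0.15 for agonists. With 2 residual degrees of freedom the fit over all 6 libraries does not show that the members did not differ.

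Other genes of mitochondrial energy metabolism did not share 1 pattern with the members. In PNU 12 h against PNU 8 h, 2 of 15 TCA cycle enzymes, which feed electrons to the chain, were at least 1.2-fold higher, with a median log2 difference of 0.05. Of these enzymes Mdh2, malate dehydrogenase, was highest in nicotine 1 h and had a range of 1.67-fold, whereas Dld, the shared dehydrogenase of the oxoacid complexes, was lowest there, with 1.66-fold, as was Pdha1, with 1.48-fold. At least 1.2-fold higher were also 7 of 18 genes of mitochondrial carriers and cristae, including Tomm7, a small subunit of the outer membrane import complex with a range of 1.53-fold, and 10 of 30 assembly factors outside the name rule. Coenzyme Q synthesis had 2 of 11, the hypoxia-responsive genes 1 of 12, and other subunits and carriers 0 of 5. Among all genes at the mean level used for such counts the share was 13.2%. The genes of mitochondrial carriers and cristae and the assembly factors lay well above that share, a difference that was not tested. The regulators of mitochondrial biogenesis had 0 of 13, with a median of -0.14. Creb1, a regulator among them, was lowest in nicotine 1 h and highest in nicotine 12 h, with a range of 2.18-fold. Mt-nd4 and Mt-nd4l, complex I subunits of the mitochondrial genome, had ranges of 2.03-fold and 2.0-fold and were highest in nicotine 12 h.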

How the data were processed

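Polyadenylated RNA of 10 RPE-J libraries was sequenced. The tools, per the submitters' processing notes, included DESeq2, STAR 2.5.2b, Trimmomatic 0.36 and, for counting, featureCounts of Subread 1.5.2. Of genome build, annotation and strand setting nothing is given in the sources used here. Deposited by the authors were 39 tables of 1 pair of libraries each, with gene names, per the file headers, and a signal per library that behaves as reads divided by a size factor set in each table. The authors' log2 fold changes and their p-values were not used. Reads were recovered from the step between deposited values (100% within 0.01 of a whole number) and scaled together by the median of ratios. The number of the PNU 12 h column was assigned by elimination. Tables list 13015 to 13781 genes, so genes below their level filter were not analysed here. Intervals of folds and levels are exact 95% binomial (folds) or Poisson (levels) intervals and cover counting error only, since reads are not independent molecules. The interval used to label recomputed medians is instead one of the median over the members.

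No replicates were labelled. Limma 3.58.1 (R 4.3.3) was fitted to log2(level + 1) for genes with a mean level of 10 or more, after a check on simulated data. Pairs were described by counts past 1.2-fold at a mean level of 50 or more in the 2 libraries. The members and gene lists were chosen with earlier results of these data known. Members named are those with the largest and smallest ranges per complex, ranges of at least 1.5-fold, the farthest in a comparison, and core subunits or isoforms fixed by name. Further members, such as those high or low in both nicotine 1 h and PNU 3 h, the RefSeq promoters printed and the comparisons told in most detail, were chosen after their values were seen. Reads of genes with near-identical copies or 2 rows may be split between them, and antisense reads were not told apart.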

Additional observations from a re-analysis of the deposited data

Results flagged for a closer look

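The difference between 12 h and 1 h had opposite signs in the compounds. The members' median log2 difference was 0.10 with PNU, -0.05 with nicotine and -0.09 with MLA, so PNU exceeded MLA by 0.18 and nicotine by 0.15. With 1 library at each time this difference was not tested. In the same comparisons the median of the ribosomal protein genes was 0.13, -0.08 and -0.08, and its part was not tested.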

How the results depend on the processing

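Of 86 recomputed values 71 were labelled as unchanged. Many of these are limma counts of genes or members that were 0 and stayed 0, so they had no direction or size to keep. The label also allows some change in a count. The members highest in PNU 12 h went from 53 to 66 without nicotine 1 h and PNU 3 h and kept it. The nicotine 12 h median against the gene's median, 0.00033, changed sign to -0.0003001 with trimmed-mean scaling and to -0.000512 with total reads. Scaling by total reads in listed genes gave a median log2 of -0.0575 for MLA 12 h against DMSO 12 h (-0.088 otherwise), of -0.112 for PNU 8 h and -0.0254 for MLA 12 h against the gene's median (-0.147 and -0.049), and 30 members lowest in PNU 8 h instead of 49. Trimmed-mean scaling (TMM) or subunits alone moved none of the medians against DMSO 12 h beyond the interval of the median over the members. That interval takes the members of 1 pair of libraries as separate values, so it measures no spread between libraries. Keeping members with a mean level of 50 or more drops only 2 rows, so it could hardly move a median and is no check. With PNU 30 min as the reference, which was chosen after seeing the data, nicotine 12 h turned to 0.048, and PNU 12 h and MLA 12 h had 0.22 and -0.0045. Likewise chosen afterwards, the median of the other 9 libraries as the reference left 26 members at least 1.2-fold higher in PNU 12 h instead of 58. Leaving out 1 of the 6 libraries gave between 0 and 456 genes for time and between 0 and 3495 for agonists, and between 0 and 23 members for agonists. Without nicotine 1 h limma called 456 and 19 genes, and without nicotine 12 h 439 and 3495, with 18 members higher and 5 lower with agonists; these fits have 1 residual degree of freedom. The planned edgeR alternative was not run, because the deposited values are scaled levels and the reads recovered from them were not accepted as counts. No paired analysis was possible because the labels give no replicate numbers; compound is already a term of the limma fit. Counting error limits Atp5s, Cox11 and the other members of low level most.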
